A study of Homo sapiens with 18 samples.

Results

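Molm-14 and MV4-11 are established human acute myeloid leukaemia cell lines, and the labels give both the genotype FLT3-ITD, an internal tandem duplication in the receptor tyrosine kinase FLT3. The 6 cultures compared here, 3 of each line, had been kept for 24 h with the vehicle DMSO, in RPMI medium with 10% fetal bovine serum and no added growth factor. They are 6 of the 18 RNA-seq libraries of the series. The other 12 are the same lines with 500 nM of the SHP2 inhibitor RMC-4550, and SKNO-1, a KIT-mutant leukaemia line grown with 10 ng/mL of GM-CSF, with each treatment. Each replicate is labelled as a biological replicate. With 1 line for each KMT2A fusion described below, differences between these lines cannot be told apart from differences between the fusions. Of 40184 gene IDs in the deposited table, the 14472 with at least 1 CPM (reads scaled to the library size) in at least 3 of the 6 libraries were tested. A gene under 1 CPM in every library of a line passed this filter only through the other line. Such a gene could be called in that direction only.

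Both lines are known to carry a rearrangement of KMT2A, which encodes a histone methyltransferase. The fusion partner is MLLT3 in Molm-14 and AFF1 in MV4-11. Such fusions hold HOXA genes and their cofactor MEIS1 active, and leukaemias that carry them usually stand at a monocytic or early myeloid stage. Signalling from FLT3-ITD passes through the phosphatase SHP2, encoded by PTPN11, to RAS and MAPK.

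The 6 libraries held 17434810 to 19820341 reads. Genes of the mitochondrial genome took 5.95%, 6.07% and 5.20% of the reads in Molm-14 replicates 1, 2 and 3, and 12.7%, 5.87% and 14.6% in MV4-11 replicates 1, 2 and 3. MV4-11 replicates 1 and 3 thus stood apart from replicate 2. Replicates of MV4-11 spread more widely: the SD (log2) of the median gene was 0.25, against 0.07 in Molm-14. In the group of 2871 genes with the lowest transcript GC content (median 38.5%), the median deviation from the mean of the 6 libraries was -0.21 and -0.22 in MV4-11 replicates 1 and 3 and close to 0 in replicate 2. In the 2871 genes with the highest GC content (median 61.5%) it was 0.23, 0.21 and 0.06. For this reason, differences are also given without MV4-11 replicates 1 and 3. The single MV4-11 library left is then assumed to vary like the Molm-14 libraries, which varied less. A call kept in that setting therefore says little. In bulk RNA, fewer cells of a type and less RNA per cell cannot be told apart.

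The labels were checked against the third line, SKNO-1, with thresholds chosen after the values were seen. SKNO-1 read 64 genes at under 2% of a Molm-14 level of 20 CPM or more, and for these the median level in MV4-11 was 42.3% of the Molm-14 level (quartiles 35.3% and 56.8%, lowest 4.04%). Conversely, Molm-14 read 84 genes at under 2% of an SKNO-1 level of 20 CPM or more, and their median level in MV4-11 was 47.8% of the SKNO-1 level (quartiles 28.2% and 62.6%). With at least 10 CPM and under 5% as thresholds, 149 and 241 genes gave medians of 41.3% and 50.2%. The RMC-4550 cultures gave 44.7% and 52.2% for the gene sets of the first thresholds. Genes with at least 20 CPM in 1 line and under 2% of that level in both others numbered 0 for MV4-11, 0 for Molm-14 and 5 for SKNO-1. Among genes with at least 20 CPM, a level over 4 times that of both other lines was found for 12 genes in Molm-14, 25 in SKNO-1 and 0 in MV4-11. Some SKNO-1 genes were near absent from MV4-11. RUNX1T1, the partner of RUNX1 in the fusion gene that SKNO-1 is known to carry, had a mean of 13.8 CPM in SKNO-1 and 0 reads in every DMSO library of both other lines. MPO, which encodes the granule enzyme myeloperoxidase, had 317 CPM in SKNO-1 and 1.45, 1.79 and 1.08 CPM in the MV4-11 libraries. Whether MV4-11 itself reads these genes at intermediate levels or its libraries hold RNA of more than 1 line was not tested. Every difference below is between the libraries labelled Molm-14 and those labelled MV4-11.

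**Figure D1:**
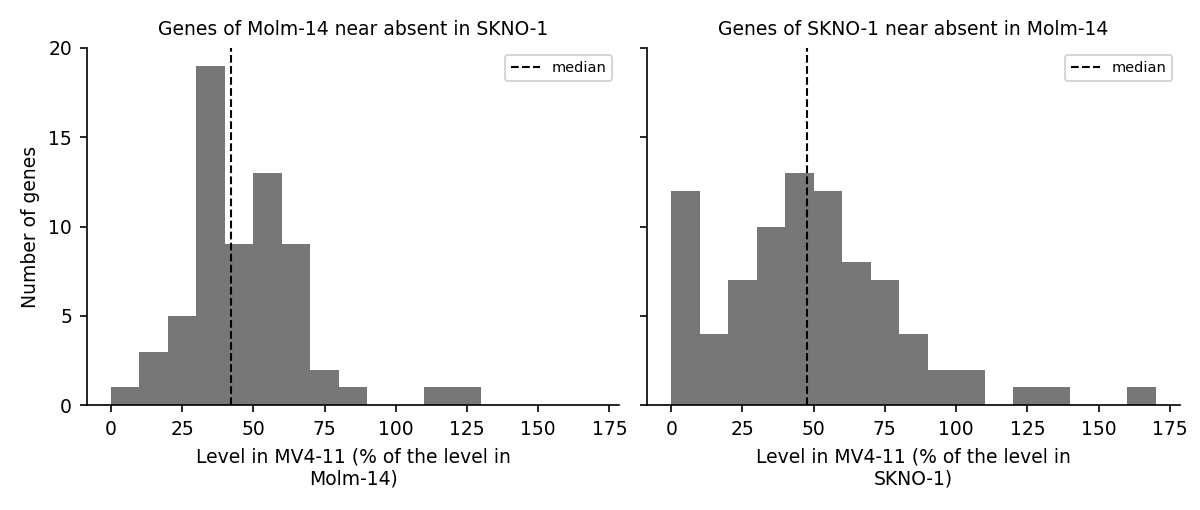
Histograms of the level in MV4-11 of genes that mark another line, each gene's mean CPM in MV4-11 as a percent of its mean CPM in the marked line, with the number of genes on the y axis. Most genes lie between 20% and 80% in both panels, around dashed medians of 42.3% and 47.8%, and the right panel has a second group of genes under 10%.

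Differences between the lines were widespread. Of the 14472 genes, 3850 (26.6%) were higher in Molm-14 and 3352 (23.2%) were higher in MV4-11 at an adjusted p under 0.05 (limma, two-sided), 49.8% in either direction. These shares are the background for every count of list members below, and a count near them is no trait of its list. The balance turned with the scaling: the counts were 3387 and 3678 with median-ratio scaling, 3414 and 3686 with nuclear reads only, and 3317 and 3823 after adjustment for GC content and length. Without MV4-11 replicates 1 and 3, the median difference of all genes tested was 0.04, against 0.08 with all 6 libraries. The differences were unequal in size: when the test asked for a change beyond 2-fold, 126 genes (0.871%) passed as higher in Molm-14 and 937 (6.47%) as higher in MV4-11. Molm-14 had 7652 genes at 20 CPM or more, of which 1 was under 10% of its level in MV4-11, whereas 94 of 7600 were under 10% in the reverse direction.

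The clearest contrast was a group of genes that MV4-11 read and Molm-14 did not. In all, 49 genes had a mean of at least 10 CPM in MV4-11 and 3 reads or fewer in each Molm-14 library, and 0 genes had the reverse pattern. No test was made of this count, since the pattern was chosen for its size. All 49 had at least 1 CPM in SKNO-1. The share of other genes that reach this level there is not given, so this count is not read as a trait of the group. Of the 49, 39 are protein-coding, as are 11864 of the 14472 genes tested, so this is no trait of the group. In all Molm-14 libraries, 13 of the 49 had 0 reads. In the RMC-4550 cultures, 35 of the 49 again had 3 reads or fewer in each Molm-14 library, and 44 had at least 10 CPM in MV4-11. The promoters of 3 of these genes are shown, a cell cycle inhibitor, a gene whose promoter window overlaps that of a neighbour, and the gene of the highest level, from RefSeq (build GRCh38.p14, 250 bases before to 50 bases after an annotated start, 5′ to 3′ on the gene's strand), with each CG dinucleotide, the site of DNA methylation, in capitals. CDKN2A at chr9:21974808-21975107 (minus strand) is the start known to give the cell cycle inhibitor p16. NHLRC3 at chr13:39038061-39038360 (plus strand) lies head to head with PROSER1, whose own 300-base window on the minus strand shares 279 bases with it. PITX1 at chr5:135034179-135034478 (minus strand) encodes a homeodomain transcription factor.
CDKN2A: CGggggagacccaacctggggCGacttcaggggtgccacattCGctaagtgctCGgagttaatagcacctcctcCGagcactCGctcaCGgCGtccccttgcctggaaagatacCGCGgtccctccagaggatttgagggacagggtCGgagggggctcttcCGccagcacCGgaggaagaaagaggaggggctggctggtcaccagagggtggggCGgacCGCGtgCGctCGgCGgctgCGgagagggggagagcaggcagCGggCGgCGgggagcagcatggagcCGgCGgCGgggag
NHLRC3: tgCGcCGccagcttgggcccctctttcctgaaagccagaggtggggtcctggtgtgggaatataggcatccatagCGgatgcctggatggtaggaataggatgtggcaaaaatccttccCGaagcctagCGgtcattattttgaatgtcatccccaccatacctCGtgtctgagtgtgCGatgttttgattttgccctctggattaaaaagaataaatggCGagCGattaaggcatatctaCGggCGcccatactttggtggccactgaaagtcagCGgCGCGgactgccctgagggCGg
PITX1: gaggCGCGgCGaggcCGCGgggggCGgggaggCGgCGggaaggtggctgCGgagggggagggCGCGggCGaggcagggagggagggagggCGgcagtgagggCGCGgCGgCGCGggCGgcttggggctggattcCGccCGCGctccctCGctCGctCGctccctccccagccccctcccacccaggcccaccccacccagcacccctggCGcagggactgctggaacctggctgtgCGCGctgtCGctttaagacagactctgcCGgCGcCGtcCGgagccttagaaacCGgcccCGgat

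The 3 windows hold 26, 15 and 35 CG dinucleotides, a motif that reads the same on both strands. At least 1 CG was present in 95.8% of all 27305 promoters in the reference table. The ratio of observed to expected CG, given the C and G content, was 0.764, 0.712 and 0.795. Over the 31 genes of the group with a promoter in that table, 22 (71.0%) had a ratio over 0.6, against 81.6% of 10243 tested genes and 48.9% of all promoters. The letters describe the windows only, and methylation was not measured.

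CDKN2A, which encodes the cell cycle inhibitor p16 and the MDM2 inhibitor p14ARF, had 0, 0 and 0 reads in the Molm-14 libraries and 78.9, 47.97 and 90.1 CPM in the MV4-11 libraries. It was at least 1266-fold higher in MV4-11, taking the floor as 3 reads over the 3 Molm-14 libraries together. Bounds and intervals of this kind cover counting error only. Of its neighbours on chromosome 9, MTAP, which encodes an enzyme of methionine salvage, had 13.1, 15.1 and 12.4 CPM in Molm-14 and 19.6, 22.7 and 22.2 CPM in MV4-11, a log2 difference (Molm-14 minus MV4-11, as throughout) of -0.67 (SE 0.12, adjusted p = 0.0042). CDKN2B, another cell cycle inhibitor gene beside CDKN2A, had 0, 0 and 0 reads in the Molm-14 libraries and only 0.323, 0.614 and 0.658 CPM in MV4-11. Their antisense neighbour CDKN2B-AS1 had 1.28, 1.27 and 1.11 CPM in Molm-14 and 2.48, 2.05 and 2.69 CPM in MV4-11, and whether reads were counted by strand is not given in the sources used here. CDKN2B-AS1 differed by -0.96 ± 0.20 (SE), a call lost without MV4-11 replicates 1 and 3 (-0.73). CDKN2A was thus without reads in Molm-14 while MTAP and CDKN2B-AS1 were read in both lines.

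PITX1 had the highest level of the group, with 2, 1 and 1 reads in the Molm-14 libraries and 207, 165 and 221 CPM in MV4-11, a ratio of 2612 (95% interval 1019.7 to 9587). The long noncoding RNA gene EPIST, which lies 4018 bases from PITX1, had 0, 0 and 0 reads in Molm-14 and 24.1, 16.01 and 28.01 CPM in MV4-11. PROSER1 and NHLRC3, with annotated starts 230 bases apart on chromosome 13, were at the floor together: PROSER1 had 1, 1 and 0 reads in the Molm-14 libraries and 25.02, 33.6 and 26.9 CPM in MV4-11, and NHLRC3 had 0, 0 and 0 reads and 18.5, 20.4 and 17.95 CPM. TRGC1, a constant segment of the T cell receptor gamma locus, had 3, 0 and 0 reads in Molm-14 and 76.1, 66.3 and 86.1 CPM in MV4-11. The other constant segment, TRGC2, had 0, 0 and 1 reads and 59.6, 42.7 and 67.4 CPM. These segments are near-identical copies, so the split of reads between them is uncertain. The rule that chose these genes leaves little room for the libraries of the lines to overlap.

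Further genes of the group ran from cell surface to nucleus. SALL4, a transcription factor of stem cells, had 1, 0 and 0 reads in the Molm-14 libraries and 26.5, 16.01 and 25.6 CPM in MV4-11. The netrin receptor gene UNC5C had 0, 0 and 1 reads and 24.5, 45.5 and 24.4 CPM, highest in MV4-11 replicate 2. SERPINB6, a protease inhibitor gene, had 2, 0 and 2 reads and 46.7, 45.2 and 45.8 CPM. PSTPIP2, which encodes an actin-associated adaptor of macrophages, had 1, 1 and 1 reads and 30.7, 34.6 and 31.2 CPM. BEX3 had 0, 1 and 1 reads and 27.2, 27.5 and 29.1 CPM, NPDC1 had 0, 2 and 1 reads and 42.3, 25.4 and 38.96 CPM, and TMEM233 had 0, 0 and 0 reads and 25.5, 21.6 and 28.5 CPM. The choice of these genes allowed at most 3 reads in each Molm-14 library, and their MV4-11 values varied by under 2-fold between libraries. ACCS was at least 443-fold and NIPSNAP1 at least 276-fold higher in MV4-11. These ranks are by CPM and not per length of the gene. One gene of the 49 is not described here.

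**Figure D2:**
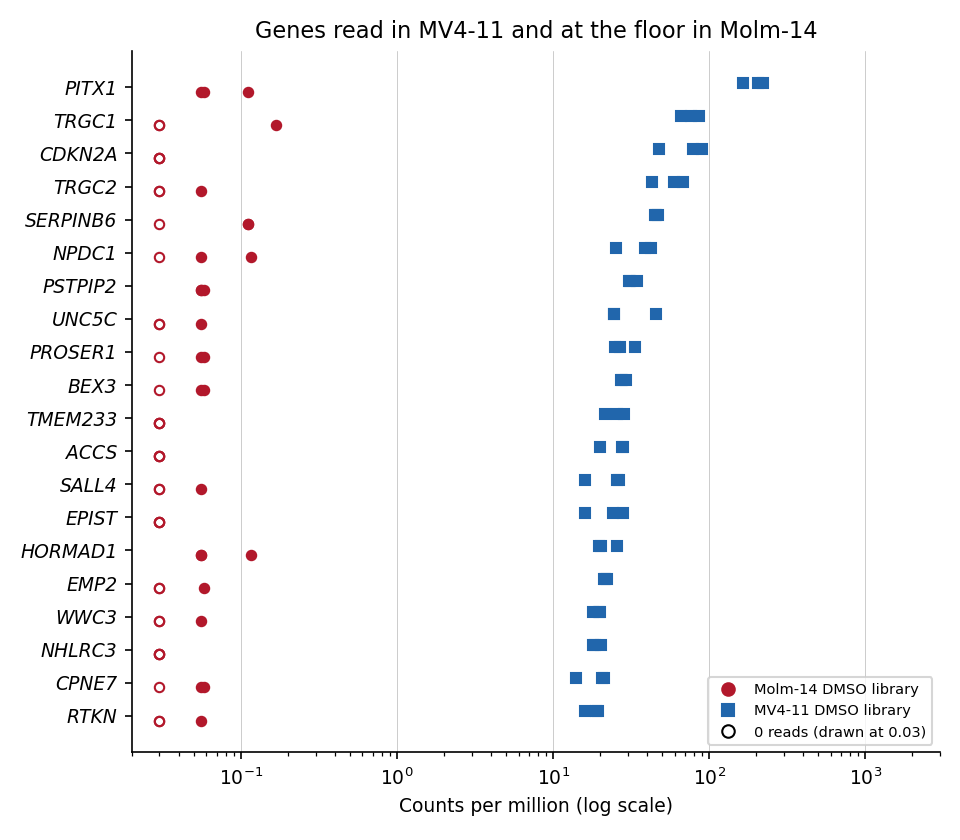
CPM (log scale) of 20 genes read in MV4-11 and at the floor in Molm-14, 1 row per gene, with red circles for the Molm-14 libraries and blue squares for the MV4-11 libraries. Open circles mark 0 reads and are drawn at 0.03 CPM; the MV4-11 libraries lie between 13.96 and 221 CPM and each Molm-14 library holds 3 reads or fewer.

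Genes higher in Molm-14 had a smaller range. DSG2, which encodes the desmosomal adhesion protein desmoglein-2, had 29.7, 28.3 and 26.4 CPM in Molm-14 and 1.13, 1.38 and 0.898 CPM in MV4-11, a log2 difference of 4.62 (SE 0.18, adjusted p = 5.4e-06). It was the 1 gene of at least 20 CPM that fell under 10% of its Molm-14 level in MV4-11. ERBB4, a receptor tyrosine kinase gene of the EGF receptor family, had 40.9, 39.2 and 40.4 CPM in Molm-14 and 3.82, 5.32 and 4.31 CPM in MV4-11, a difference of 3.17 (SE 0.14, adjusted p = 1.0e-05). JAZF1, a transcriptional repressor gene, differed by 3.48 ± 0.15 (SE), RRAS2, a RAS-related GTPase gene, by 3.47 ± 0.30 (SE), and ZNF28 by 3.21 ± 0.29 (SE). MAPK13, which encodes the stress kinase p38 delta, had 174, 170.1 and 177 CPM in Molm-14 and 25.3, 19.4 and 24.5 CPM in MV4-11. The gap junction gene GJC1 differed by 2.92 ± 0.23 (SE), and GEM, a GTPase gene, by 3.08 ± 0.18 (SE). MITF, a transcription factor of melanocytes and mast cells, had 22.9, 23.01 and 23.5 CPM in Molm-14 and 2.15, 6.802 and 1.92 CPM in MV4-11. MV4-11 replicate 2 lay nearer to Molm-14 than the other MV4-11 libraries for MITF, and its difference was 1.76 without replicates 1 and 3 against 2.92 with all libraries. The choice of these genes required that the libraries of the lines did not overlap.

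The KMT2A fusion genes and the genes of the KMT2A fusion programme were higher in Molm-14 more often than in MV4-11. Of the list, 17 of 27 tested members were higher in Molm-14 and 5 were higher in MV4-11, with a median of 0.57 against 0.08 over all genes tested. Without MV4-11 replicates 1 and 3 the median was 0.35. KMT2A itself went the other way, at 53.5, 55.2 and 58.05 CPM in Molm-14 and 185, 216 and 170.1 CPM in MV4-11, 3.41-fold higher in MV4-11 with a log2 difference of -1.77 (SE 0.11, adjusted p = 3.3e-05). Its reads come from the intact and the fused gene together. MLLT3, the partner in Molm-14, had 36.3, 35.6 and 34.04 CPM in Molm-14 and 11.7, 16.8 and 12.1 CPM in MV4-11, a difference of 1.40 (SE 0.15, adjusted p = 4.3e-04). AFF1, the partner in MV4-11, had 362, 369 and 369 CPM in Molm-14 and 209, 356 and 198 CPM in MV4-11. MV4-11 replicate 2 lay just below the Molm-14 libraries for AFF1 and replicates 1 and 3 lay well below them, and the difference of 0.58 (SE 0.21, adjusted p = 0.057) did not pass.

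Of 11 HOXA genes tested, 10 were higher in Molm-14 and 0 in MV4-11, with a median difference of 0.81 and of 0.93 without MV4-11 replicates 1 and 3. HOXA9, a homeodomain factor that sustains leukaemic self-renewal, had 134, 136 and 141 CPM in Molm-14 and 90.5, 93.4 and 93.7 CPM in MV4-11, a difference of 0.57 (SE 0.08, adjusted p = 0.0011). HOXA13 had 113, 112 and 114 CPM in Molm-14 and 40.8, 51.2 and 40.6 CPM in MV4-11, a difference of 1.36 (SE 0.11, adjusted p = 1.3e-04). HOXA6 differed by 1.42 ± 0.26 (SE), HOXA5 by 1.07 ± 0.11 (SE), HOXA11 by 0.68 ± 0.08 (SE) and HOXA10 by 0.54 ± 0.10 (SE). HOXA3 differed by 0.72 ± 0.14 (SE) and HOXA7 by 0.95 ± 0.23 (SE). The HOXA7 call was lost without Molm-14 replicate 1 and without Molm-14 replicate 2, and both calls were lost in a fit over all 18 libraries. From the HOXB cluster, HOXB9 had 71.5, 73.5 and 72.6 CPM in Molm-14 and 14.3, 16.2 and 15.2 CPM in MV4-11, 4.77-fold higher in Molm-14. The cofactor MEIS1 was higher in MV4-11, at 93.3, 90.3 and 88.6 CPM in Molm-14 and 133, 116 and 126 CPM in MV4-11, a difference of -0.46 (SE 0.09, adjusted p = 0.0049), as was MYB, a transcription factor of immature blood cells, with a difference of -0.63 ± 0.08 (SE). IGF2BP3, which encodes an RNA-binding protein of fetal tissues, had 26.2, 29.9 and 28.7 CPM in Molm-14 and 7.32, 15.1 and 5.09 CPM in MV4-11. Its libraries did not overlap, and its difference was 1.77 with all libraries and 0.90 without MV4-11 replicates 1 and 3. MEN1, whose product menin tethers KMT2A to chromatin, differed by -0.36 ± 0.08 (SE), a call lost without Molm-14 replicate 1, without Molm-14 replicate 2 and with GC content and length adjusted (-0.17).

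**Figure D3:**
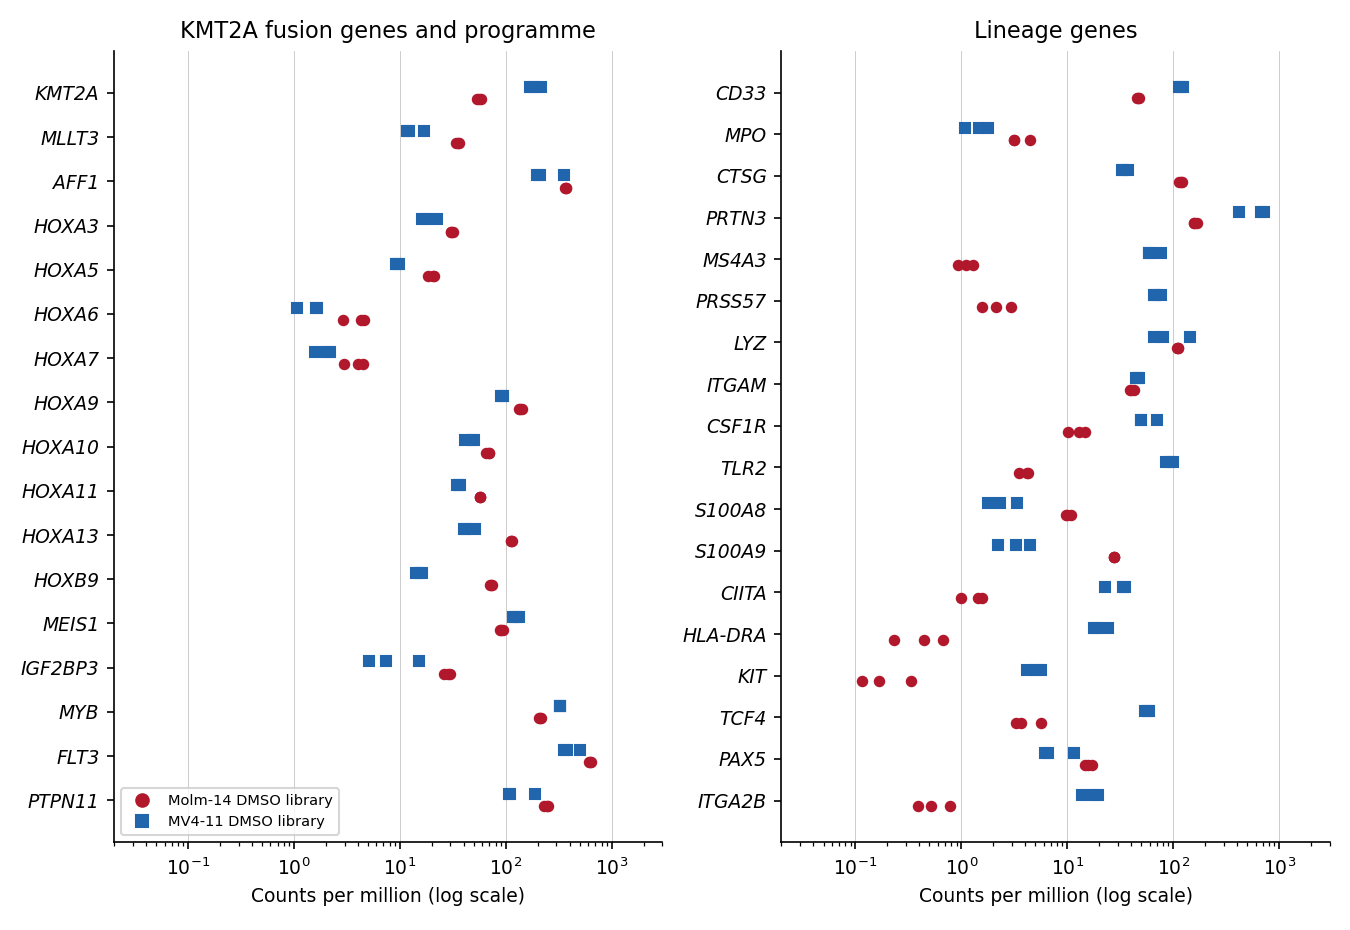
CPM (log scale) in each library for genes of the KMT2A fusion programme and signalling (left) and for lineage genes (right), with red circles for the 3 Molm-14 libraries and blue squares for the 3 MV4-11 libraries. HOXA genes lie higher in Molm-14, KMT2A lies higher in MV4-11, and TLR2, MS4A3, PRSS57, HLA-DRA, KIT, TCF4 and ITGA2B lie more than 10-fold higher in MV4-11.

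The labelled cell type was checked against its defining markers. Of the myeloid markers, CD33 had 47.6, 45.3 and 46.2 CPM in Molm-14 and 119, 113 and 123 CPM in MV4-11, ITGAM, the integrin subunit of monocytes and granulocytes, had 38.9, 39.9 and 42.9 CPM in Molm-14 and 47.6, 46.6 and 44.5 CPM in MV4-11, and LYZ, which encodes lysozyme, had 111, 109 and 112 CPM in Molm-14 and 80.5, 144 and 65.3 CPM in MV4-11. All 3 were read in every library. CD33 was 2.55-fold higher in MV4-11, while ITGAM and LYZ did not pass, with differences of -0.19 (SE 0.09, adjusted p = 0.11) and 0.28 (SE 0.27, adjusted p = 0.41). Without MV4-11 replicates 1 and 3 these differences were -0.20 and -0.38, so that LYZ changed sign. LYZ was highest in MV4-11 replicate 2 and lowest in replicates 1 and 3. CD14, the marker of mature monocytes, was at 3 or 4 reads in each Molm-14 library and at 0.1795 CPM or lower in each MV4-11 library, and MPO was at 4.401 CPM or lower in all 6. CD34 was at 1 read or fewer in each library. The defining markers of other lineages were near 0 for T cells (CD3E) and platelets (PF4), with 1 read of CD3E and 0 of PF4 over the 6 libraries. The summed level of the T and NK cell list was 299 to 310.4 CPM over the Molm-14 libraries and 315 to 405 CPM over those of MV4-11, of which CD4 and NCAM1 made up the most.

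Of the monocyte and macrophage markers, 4 of 20 tested members were higher in Molm-14 and 9 were higher in MV4-11, with a median of -0.17. Without MV4-11 replicates 1 and 3 the median was -0.35. The summed level of this list was 894 to 938 CPM in Molm-14 and 1201 to 1514 CPM in MV4-11. CSF1R, the receptor for macrophage colony-stimulating factor, had 10.2, 12.9 and 14.7 CPM in Molm-14 and 49.4, 69.6 and 49.97 CPM in MV4-11, a difference of -2.15 (SE 0.19, adjusted p = 1.6e-04). TLR2, a receptor for bacterial lipoproteins, had 4.17, 4.21 and 3.51 CPM in Molm-14 and 93.1, 84.95 and 98.9 CPM in MV4-11, 23.2-fold higher in MV4-11. ITGAX, an integrin of monocytes and dendritic cells, and CCR2, the receptor that draws monocytes into tissue, differed by -2.20 ± 0.20 (SE) and -2.29 ± 0.29 (SE), and CCR2 by -3.00 without MV4-11 replicates 1 and 3. The alarmin genes S100A8 and S100A9 went the other way. S100A9 had 27.5, 27.7 and 27.5 CPM in Molm-14 and 3.28, 4.45 and 2.21 CPM in MV4-11, a difference of 3.10 (SE 0.24, adjusted p = 9.7e-05), and S100A8 differed by 2.07 ± 0.23 (SE). MS4A7, a membrane protein gene of the list, was also higher in Molm-14, with a difference of 0.58 (SE 0.08, adjusted p = 0.0013). Monocyte genes were thus split between the lines, with genes of surface proteins on both sides. CX3CR1, the fractalkine receptor, had 23.4, 21.3 and 23.1 CPM in Molm-14 and 7.16, 16.8 and 8.74 CPM in MV4-11. Its difference of 1.15 ± 0.30 (SE) was 0.42 without MV4-11 replicates 1 and 3, and its call was lost without any 1 of Molm-14 replicates 1 and 3 and MV4-11 replicates 1 and 3.

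Of the granulocyte and granule markers, 3 of 13 tested members were higher in Molm-14 and 5 were higher in MV4-11 (all genes tested: 26.6% and 23.2%). The median was -0.26, and -0.02 without MV4-11 replicates 1 and 3. MS4A3, a membrane protein gene of granulocyte and monocyte progenitors, had 1.11, 0.923 and 1.28 CPM in Molm-14 and 58.8, 76.3 and 59.2 CPM in MV4-11, a difference of -5.84 (SE 0.17, adjusted p = 2.5e-06). PRSS57, a granule serine protease gene, had 2.11, 2.94 and 1.56 CPM in Molm-14 and 65.3, 68.2 and 76.6 CPM in MV4-11, a difference of -5.02 (SE 0.23, adjusted p = 9.8e-06). PRTN3, which encodes proteinase 3, differed by -1.87 ± 0.20 (SE), and CEBPE, a transcription factor of late granulocyte development, by -3.08 ± 0.28 (SE). The cathepsin G gene CTSG was higher in Molm-14, at 114, 118 and 121 CPM in Molm-14 and 32.7, 37.4 and 33.2 CPM in MV4-11, a difference of 1.77 (SE 0.09, adjusted p = 1.6e-05). Granule proteases were thus split: CTSG was 3.42-fold higher in Molm-14 and PRTN3 was 3.66-fold higher in MV4-11.

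Stem and progenitor markers were split, as 4 of 11 tested members were higher in Molm-14 and 5 were higher in MV4-11 (all genes tested: 26.6% and 23.2%). The median was -0.14, or -0.04 without MV4-11 replicates 1 and 3. KIT, the receptor for stem cell factor, had 0.333, 0.115 and 0.167 CPM in Molm-14 and 5.704, 5.01 and 4.19 CPM in MV4-11, a difference of -4.52 (SE 0.37, adjusted p = 1.2e-04). Its ligand gene KITLG was higher in Molm-14, at 11.4, 10.96 and 11.3 CPM in Molm-14 and 1.51, 3.58 and 2.45 CPM in MV4-11, a difference of 2.23 (SE 0.30, adjusted p = 0.001), and by 1.64 without MV4-11 replicates 1 and 3. TCF4, a helix-loop-helix factor of plasmacytoid dendritic cells and some leukaemias, had 3.67, 3.29 and 5.63 CPM in Molm-14 and 57.1, 54.1 and 58.8 CPM in MV4-11 and was also above SKNO-1, at 22.6 CPM. CD38 had 7.67, 6.57 and 7.298 CPM in Molm-14 and 17.3, 22.7 and 14.6 CPM in MV4-11, and SOX4 differed by -0.86 ± 0.14 (SE), or -0.55 without MV4-11 replicates 1 and 3. CD109, a surface protein that binds transforming growth factor beta, had 435, 453 and 424 CPM in Molm-14 and 145, 181 and 98.9 CPM in MV4-11, and ANGPT1, which encodes angiopoietin-1, differed by 2.04 ± 0.22 (SE). Libraries of the lines did not overlap for KIT, KITLG, TCF4, CD38, CD109 or ANGPT1. For KIT, under 1 CPM in every Molm-14 library, the filter left no other outcome. GATA2, a transcription factor of stem cells, was called at 0.52 ± 0.17 (SE), and the call was lost without any 1 library other than MV4-11 replicate 2 and without MV4-11 replicates 1 and 3 together (0.37), as well as with median-ratio scaling and with nuclear reads only.

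Markers of lymphoid, dendritic and megakaryocytic cells differed as well. Of the B-lymphoid list, 1 of 8 tested members were higher in Molm-14 and 4 were higher in MV4-11. PAX5, the factor that commits cells to the B lineage, was higher in Molm-14, at 14.8, 16.95 and 15.7 CPM in Molm-14 and 6.62, 11.5 and 6.22 CPM in MV4-11, a difference of 1.02 (SE 0.24, adjusted p = 0.011), of 0.46 without MV4-11 replicates 1 and 3 and of -0.50, not called, with RMC-4550. BLK, a kinase gene of B cells, had 0, 0 and 0 reads in Molm-14 and was at least 92.9-fold higher in MV4-11. The megakaryocytic integrin gene ITGA2B had 0.778, 0.519 and 0.38995 CPM in Molm-14 and 19.6, 13.8 and 17.4 CPM in MV4-11, a difference of -4.88 (SE 0.28, adjusted p = 2.4e-05), and 17.3 CPM in SKNO-1. KLF1, the erythroid factor, had 0, 0 and 1 reads in Molm-14 and 1.35, 1.07 and 0.778 CPM in MV4-11 and was not tested. Of the erythroid and megakaryocyte list, 0 of 5 tested members were higher in Molm-14 and 3 were higher in MV4-11, and of the dendritic cell list, 2 of 7 tested members were higher in Molm-14 and 4 were higher in MV4-11. CLEC10A, a lectin receptor of dendritic cells, had 1, 1 and 0 reads in Molm-14 and 5.27, 5.47 and 5.805 CPM in MV4-11, a ratio of 147 (95% interval 40.3 to 1217). NCAM1 (CD56) and PRF1, which encodes perforin, were higher in Molm-14, by 1.40 ± 0.17 (SE) and 2.77 ± 0.23 (SE), and CD4 was higher in MV4-11, with a difference of -1.01 ± 0.13 (SE). The part that cells of these lineages play in these values was not tested.

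MHC class II genes were higher in MV4-11 for all but 1 of the tested members. These genes encode the molecules that present peptides to CD4 T cells, and CIITA is their master activator. Of the list of 13, 9 members were tested. Of these, 0 were higher in Molm-14 and 8 were higher in MV4-11, with a median of -4.47, and of -4.72 without MV4-11 replicates 1 and 3. HLA-DRA, HLA-DRB1 and HLA-DPA1 were under 1 CPM in every Molm-14 library and passed the filter only through MV4-11. The count and the median therefore lean to MV4-11 by the choice of genes. CIITA reached 1 CPM in every library of both lines. HLA-DRA had 0.444, 0.231 and 0.668 CPM in Molm-14 and 18.5, 18.1 and 24.5 CPM in MV4-11, a difference of -5.52 (SE 0.36, adjusted p = 4.3e-05). HLA-DRB1 had 0.0556, 0.115 and 0.334 CPM in Molm-14 and 18.99, 15.7 and 18.9 CPM in MV4-11, a difference of -6.77 (SE 0.50, adjusted p = 7.6e-05). Reads of HLA-DRB1 and its near copy HLA-DRB5 may have been split between them. HLA-DPA1 had 1, 1 and 0 reads in Molm-14 and 4.14, 3.48 and 2.87 CPM in MV4-11. CIITA had 1.56, 1.44 and 1.003 CPM in Molm-14 and 33.3, 35.2 and 22.4 CPM in MV4-11, a difference of -4.47 (SE 0.24, adjusted p = 2.0e-05). All MV4-11 libraries exceeded all Molm-14 libraries for these genes, which the filter fixed in advance for HLA-DRA, HLA-DRB1 and HLA-DPA1. In SKNO-1 the mean level of HLA-DRA, 18.4 CPM, lay within the MV4-11 range, and that of CIITA, 39.9 CPM, above it.

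Among receptor tyrosine kinases, 9 of 21 tested members were higher in Molm-14 and 7 were higher in MV4-11 (median -0.06, or -0.14 without MV4-11 replicates 1 and 3). FLT3, the mutated receptor of both lines, had 621, 613 and 633 CPM in Molm-14 and 351, 502 and 378 CPM in MV4-11, a difference of 0.62 (SE 0.14, adjusted p = 0.01) that was 0.31 without MV4-11 replicates 1 and 3. IGF1R, a growth factor receptor, had 139, 139.8 and 146 CPM in Molm-14 and 53.6, 72.2 and 49.3 CPM in MV4-11, and the Wnt coreceptor gene RYK and the lymphatic receptor gene FLT4 differed by 1.21 ± 0.09 (SE) and 1.28 ± 0.14 (SE). EPHB6, a kinase-inactive ephrin receptor gene, and LTK were higher in MV4-11, with EPHB6 at 0.611, 0.231 and 0.7799 CPM in Molm-14 and 12.6, 11.97 and 14.1 CPM in MV4-11 and LTK at 0.222, 0.634 and 0.446 CPM in Molm-14 and 8.82, 4.86 and 8.08 CPM in MV4-11. PTPN11, which encodes SHP2, the target of the drug used in the other cultures, had 246, 229.8 and 251 CPM in Molm-14 and 106, 187 and 110.0 CPM in MV4-11. Its difference was 0.90 (SE 0.21, adjusted p = 0.012) and 0.37 without MV4-11 replicates 1 and 3, and the MV4-11 libraries all lay below those of Molm-14. EPHB2 was called at 1.70 ± 0.54 (SE), and this call was lost without any 1 library other than MV4-11 replicate 2 and without MV4-11 replicates 1 and 3 together (0.47).

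Cytokine receptors were near the background in both directions, as 9 of 30 tested members were higher in Molm-14 and 6 were higher in MV4-11. CSF2RB, the shared signalling subunit for GM-CSF, interleukin-3 and interleukin-5, had 10.6, 11.2 and 10.8 CPM in Molm-14 and 23.2, 30.5 and 18.4 CPM in MV4-11, a difference of -1.12 (SE 0.18, adjusted p = 0.0028). TNFRSF1B, a receptor for tumour necrosis factor, had 61.8, 64.9 and 69.4 CPM in Molm-14 and 128, 186 and 130.5 CPM in MV4-11. IL2RA, the alpha chain of the interleukin-2 receptor, had 0, 0 and 0 reads in Molm-14 and 1.35, 2.51 and 2.09 CPM in MV4-11, at least 35.3-fold higher. The activin and bone morphogenetic protein receptors ACVR1 and BMPR2 and the interleukin-13 receptor gene IL13RA1 were higher in Molm-14, by 1.20 ± 0.21 (SE), 1.11 ± 0.24 (SE) and 1.09 ± 0.22 (SE). Without MV4-11 replicates 1 and 3 these 3 differences were 0.74, 0.57 and 0.55. IL2RG, the common gamma chain, was called as higher in MV4-11, with a difference of -1.91 ± 0.51 (SE). The call was lost without any 1 of Molm-14 replicates 2 and 3 and MV4-11 replicates 1 and 3, and without both MV4-11 replicates (-1.12).

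Chemokine and chemoattractant receptors were more often higher in MV4-11: 5 of 18 tested members were higher in Molm-14 and 9 were higher in MV4-11 (median -0.41, or -0.26 without MV4-11 replicates 1 and 3). CXCR3, the receptor of interferon-induced chemokines, had 0.278, 0.173 and 0.0557 CPM in Molm-14 and 3.07, 2.51 and 4.61 CPM in MV4-11, and the eotaxin receptor gene CCR3 had 0.278, 0.115 and 0.167 CPM in Molm-14 and 2.85, 1.99 and 2.87 CPM in MV4-11. Both genes were under 1 CPM in every Molm-14 library and passed the filter only through MV4-11, so that their libraries could not overlap. GPR84, a receptor for medium-chain fatty acids, was higher in Molm-14, at 32.7, 31.1 and 31.1 CPM in Molm-14 and 16.8, 16.5 and 15.6 CPM in MV4-11. Of the ligands, 6 of 20 tested members were higher in Molm-14 and 8 were higher in MV4-11. CSF1, the ligand of CSF1R, had 0.167, 0.0577 and 0.38995 CPM in Molm-14 and 2.15, 1.94 and 1.92 CPM in MV4-11, so that ligand and receptor were both higher in MV4-11, whereas KITLG and KIT were higher in opposite lines. CCL23 differed by -2.09 ± 0.29 (SE). IL18 had 47.01, 45.8 and 43.3 CPM in Molm-14 and 25.8, 24.1 and 26.99 CPM in MV4-11, and TNFSF13B, which encodes the B cell survival factor BAFF, differed by 0.64 ± 0.09 (SE), both higher in Molm-14. PDGFA was higher in Molm-14 by 0.75 ± 0.13 (SE).

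Integrins and adhesion genes were near the background of 26.6% and 23.2%, as 7 of 27 tested members were higher in Molm-14 and 7 were higher in MV4-11. ITGB7 had 3.72, 3.52 and 3.398 CPM in Molm-14 and 17.1, 34.7 and 14.004 CPM in MV4-11, a difference of -2.51 (SE 0.32, adjusted p = 8.5e-04), and was highest in MV4-11 replicate 2, so that it was -3.28 without the other MV4-11 replicates. ITGB5 had 0.278, 0.0577 and 0.111 CPM in Molm-14 and 2.91, 5.57 and 4.19 CPM in MV4-11, and ITGA3 had 0, 2 and 2 reads in Molm-14 and 3.66, 3.94 and 4.37 CPM in MV4-11. ITGB1, the common beta subunit, was higher in Molm-14, at 166, 169 and 172 CPM in Molm-14 and 54.7, 112 and 57.1 CPM in MV4-11, by 1.26 ± 0.26 (SE) and by 0.59 without MV4-11 replicates 1 and 3. ITGAV differed by 1.11 ± 0.23 (SE), and by 0.61 in that setting.

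Of the RAS-MAPK output genes, 8 of 17 tested members were higher in Molm-14 and 5 were higher in MV4-11, with a median of 0.40 and of 0.13 without MV4-11 replicates 1 and 3. The members differed in direction. DUSP6, the phosphatase that switches off ERK, had 54.7, 56.2 and 52.98 CPM in Molm-14 and 116, 84.7 and 125 CPM in MV4-11, a difference of -0.97 (SE 0.15, adjusted p = 0.002) and of -0.63 without those replicates. The immediate early gene FOS had 165, 170.7 and 179 CPM in Molm-14 and 534, 383 and 517 CPM in MV4-11, a difference of -1.47 (SE 0.14, adjusted p = 2.3e-04), and PHLDA1 differed by -1.08 ± 0.12 (SE). The feedback inhibitor gene SPRY2 was higher in Molm-14, at 56.5, 57.4 and 56.8 CPM in Molm-14 and 16.3, 33.4 and 16.04 CPM in MV4-11, with a difference of 1.47 ± 0.27 (SE) that was 0.77 without MV4-11 replicates 1 and 3. SPRY1, of the same inhibitor family, differed by 1.45 ± 0.22 (SE), so that both were higher in Molm-14 while DUSP6, FOS and PHLDA1 were higher in MV4-11. MYC had 262, 269 and 275 CPM in Molm-14 and 82.6, 209 and 73.6 CPM in MV4-11. MV4-11 replicate 2 was more than 2-fold above replicates 1 and 3, the difference of 1.31 became 0.37 without those replicates, and the call was lost without any 1 library other than MV4-11 replicate 2.

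Of the BCL2 family, 6 of 16 tested members were higher in Molm-14 and 3 were higher in MV4-11 (all genes tested: 26.6% and 23.2%). BCL2A1, a survival gene of myeloid cells, had 7.33, 8.36 and 7.97 CPM in Molm-14 and 4.74, 3.27 and 3.77 CPM in MV4-11, a difference of 1.02 (SE 0.17, adjusted p = 0.0032). BBC3, which encodes the death activator PUMA, differed by 0.61 ± 0.09 (SE), also higher in Molm-14. BMF, another death activator gene, had 64.01, 67.9 and 68.5 CPM in Molm-14 and 114, 136 and 108 CPM in MV4-11 and was higher in MV4-11, with a difference of -0.83 ± 0.11 (SE). BCL2L11, which encodes BIM, had 45.7, 49.2 and 47.4 CPM in Molm-14 and 20.8, 34.6 and 15.1 CPM in MV4-11, a difference of 1.10 and of 0.45 without MV4-11 replicates 1 and 3. This call was lost without any 1 of Molm-14 replicates 2 and 3 and MV4-11 replicate 1.

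Of the cell cycle inhibitors and their neighbours, 8 of 14 tested members were higher in Molm-14 and 4 were higher in MV4-11. CDKN1A, which encodes p21, a target of p53, had 589, 623 and 633 CPM in Molm-14 and 343, 449 and 299 CPM in MV4-11, a difference of 0.78 (SE 0.15, adjusted p = 0.0055) and of 0.45 without MV4-11 replicates 1 and 3. MDM2, which encodes the ubiquitin ligase of p53, had 267, 264 and 258 CPM in Molm-14 and 153, 155 and 138 CPM in MV4-11, a difference of 0.82 (SE 0.08, adjusted p = 3.1e-04). CDKN1C and CDKN2D, inhibitors of the p57 and INK4 kind, were higher in MV4-11, with differences of -1.73 ± 0.23 (SE) and -0.69 ± 0.11 (SE). With CDKN2A, this left inhibitor genes on each side with DMSO, with CDKN1A higher in Molm-14 and CDKN2A, CDKN1C and CDKN2D higher in MV4-11. In the RMC-4550 cultures, CDKN1A (1.00) and CDKN2A were called as with DMSO. CDKN1C and CDKN2D were not called there, with differences of 0.41 and -0.04. CDK4, which p16 inhibits, had 63.5, 69.8 and 73.8 CPM in Molm-14 and 13.8, 49.7 and 8.44 CPM in MV4-11. MV4-11 replicates 1 and 3 lay far below replicate 2, so that the difference of 1.94 was 0.47 without them, and the call was lost without any 1 library other than MV4-11 replicate 2. RB1 showed a like spread, at 253, 258 and 275 CPM in Molm-14 and 116, 212 and 113 CPM in MV4-11, with a difference of 0.90 ± 0.23 (SE) that was 0.31 without those replicates, and lost its call without the same libraries.

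Of the interferon-response genes, 9 of 25 tested members were higher in Molm-14 and 9 were higher in MV4-11 (all genes tested: 26.6% and 23.2%). The median was -0.20, or -0.25 without MV4-11 replicates 1 and 3. IFI6 and OAS2, antiviral effector genes, were higher in MV4-11, IFI6 at 2.83, 2.19 and 2.23 CPM in Molm-14 and 8.23, 6.905 and 8.62 CPM in MV4-11 and OAS2 at 3.94, 3.63 and 3.398 CPM in Molm-14 and 9.52, 12.4 and 9.58 CPM in MV4-11. HERC5, a ligase gene for the ubiquitin-like protein ISG15, had 16.2, 15.9 and 16.04 CPM in Molm-14 and 3.87, 7.11 and 5.27 CPM in MV4-11, and IFIT3 differed by 1.36 ± 0.18 (SE), both higher in Molm-14. In the RMC-4550 cultures, 0 of the 9 genes higher in Molm-14 and 8 of the 9 higher in MV4-11 were called again. There, IFIT3 had a difference of -1.27 and IFIT1 of -1.68, both called in the reverse direction. With DMSO, IFIT1 was higher in Molm-14 by 1.09 ± 0.19 (SE).

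**Figure D4:**
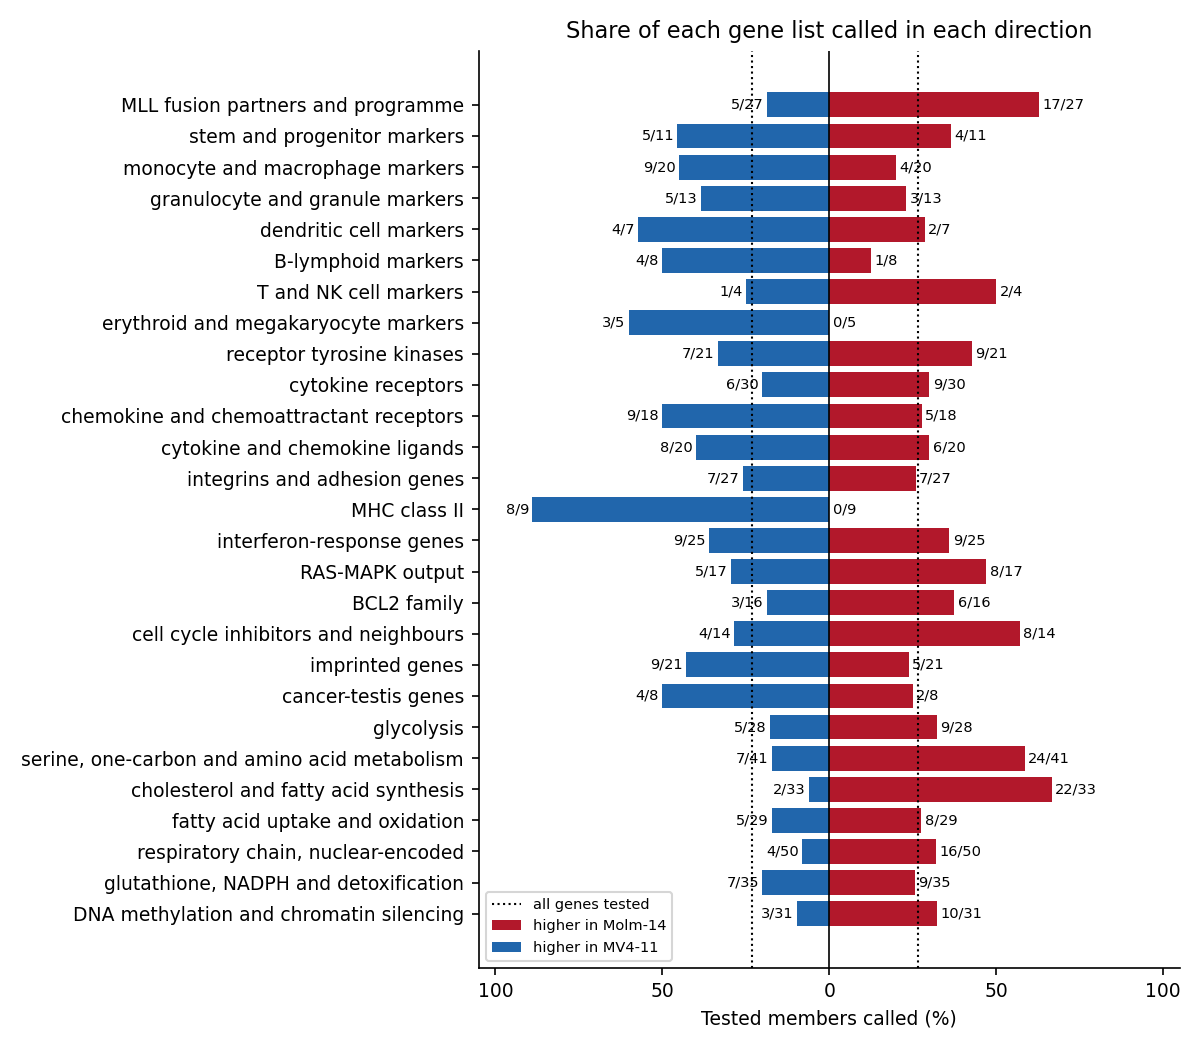
Percent of the tested members of each gene list called as higher in Molm-14 (red, to the right) and as higher in MV4-11 (blue, to the left), with the number called and tested at each bar. Dotted lines mark 26.6% and 23.2%, the shares over all 14472 genes; MHC class II extends furthest to the left and cholesterol and fatty acid synthesis furthest to the right.

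Of the cholesterol and fatty acid synthesis genes, 22 of 33 tested members were higher in Molm-14 and 2 were higher in MV4-11. The median was 0.53, and 0.31 without MV4-11 replicates 1 and 3. SCD, the desaturase that makes oleate, had 1938, 1942 and 2019 CPM in Molm-14 and 628, 1151 and 602 CPM in MV4-11, a difference of 1.38 (SE 0.24, adjusted p = 0.0036) and of 0.77 without those replicates. HMGCS1, an early enzyme of cholesterol synthesis, had 213, 212 and 221 CPM in Molm-14 and 83.6, 149.6 and 80.4 CPM in MV4-11, and DHCR7, the last enzyme of that pathway, had 113, 119.8 and 123 CPM in Molm-14 and 57.95, 74.3 and 53.9 CPM in MV4-11. Both were higher in Molm-14, by 1.10 ± 0.23 (SE) and 0.94 ± 0.13 (SE), and HMGCS1 by 0.53 without MV4-11 replicates 1 and 3. FADS2 and FADS1, the desaturases of polyunsaturated fatty acids, went the other way. FADS2 had 3.06, 2.77 and 3.57 CPM in Molm-14 and 80.98, 109 and 74.1 CPM in MV4-11, 27.6-fold higher in MV4-11 with a difference of -4.79 (SE 0.18, adjusted p = 4.4e-06), and FADS1 had 12.3, 11.8 and 13.8 CPM in Molm-14 and 34.98, 46.95 and 34.1 CPM in MV4-11, a difference of -1.60 (SE 0.15, adjusted p = 2.3e-04). The desaturase genes were thus divided between the lines. CYP51A1, a demethylase gene of the cholesterol pathway, had 3.22, 3.29 and 4.46 CPM in Molm-14 and 0.161, 1.94 and 0.1795 CPM in MV4-11. Its difference of 3.09 was 0.89 without MV4-11 replicates 1 and 3, and its call was lost without any 1 library other than MV4-11 replicate 2. In the RMC-4550 cultures, 1 of the 22 genes higher in Molm-14 and both genes higher in MV4-11 were called again. There, the differences of SCD, HMGCS1 and DHCR7 were -0.15, -0.20 and -0.34, and none of these was called.

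Of the serine, one-carbon and amino acid genes, 24 of 41 tested members were higher in Molm-14 and 7 were higher in MV4-11 (median 0.46, and 0.34 without MV4-11 replicates 1 and 3). With RMC-4550, 9 of the 24 and 4 of the 7 were called again, near the 37.3% and 56.4% over all genes tested in both treatments. BCAT1, which transaminates branched-chain amino acids, had 186, 179 and 177 CPM in Molm-14 and 48.1, 84.03 and 49.1 CPM in MV4-11, a difference of 1.63 (SE 0.21, adjusted p = 9.4e-04). The glutamine transporter gene SLC38A1 had 237, 242 and 242 CPM in Molm-14 and 68.4, 123 and 67.9 CPM in MV4-11, a difference of 1.53 (SE 0.23, adjusted p = 0.0017) and of 0.96 without those replicates. GOT1, an aspartate transaminase gene, differed by 1.27 ± 0.13 (SE), and TRIB3, a stress-response pseudokinase gene, by 1.27 ± 0.14 (SE). ATF5, a transcription factor of the mitochondrial and amino acid stress response, was the strongest exception, at 62.01, 61.6 and 62.3 CPM in Molm-14 and 577, 509 and 655 CPM in MV4-11, 9.31-fold higher in MV4-11 with a difference of -3.22 (SE 0.11, adjusted p = 3.8e-06). BCAT2, the mitochondrial counterpart of BCAT1, was higher in MV4-11, with a difference of -0.43 ± 0.09 (SE) and a call lost when GC content and length were adjusted for.

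Of the glycolysis genes, 9 of 28 tested members were higher in Molm-14 and 5 were higher in MV4-11, and the median was 0.30, or 0.08 without MV4-11 replicates 1 and 3. With RMC-4550, 0 of the 9 and 4 of the 5 were called again. The hexokinases were split. HK2 was higher in Molm-14 by 0.74 ± 0.17 (SE), and HK1 and HK3 were higher in MV4-11. HK1, the widely expressed form, had 4.06, 3.58 and 4.23 CPM in Molm-14 and 31.3, 52.7 and 29.9 CPM in MV4-11, a difference of -3.21 (SE 0.23, adjusted p = 6.3e-05), and HK3, the form of myeloid cells, had 1.56, 2.19 and 1.78 CPM in Molm-14 and 8.88, 6.34 and 8.86 CPM in MV4-11, a difference of -2.10 (SE 0.21, adjusted p = 3.0e-04). PFKFB2, which makes the activator of phosphofructokinase, had 0, 0 and 0 reads in Molm-14 and 2.798, 3.99 and 1.44 CPM in MV4-11, at least 49.9-fold higher. The glucose transporter gene SLC2A3 was higher in Molm-14, at 990.0, 986 and 987 CPM in Molm-14 and 383, 692 and 354 CPM in MV4-11, by 1.12 ± 0.24 (SE) and by 0.51 without MV4-11 replicates 1 and 3. PFKFB3 and PGAM1 were called as higher in Molm-14 with differences of 1.16 and 1.15, which were 0.27 and 0.19 without MV4-11 replicates 1 and 3, and both calls were lost without any 1 library other than MV4-11 replicate 2.

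Fatty acid uptake and oxidation genes were near the background, as 8 of 29 tested members were higher in Molm-14 and 5 were higher in MV4-11 (median 0.13, or 0.03 without MV4-11 replicates 1 and 3). ACSL3 and ACSL5, which activate fatty acids, were both higher in Molm-14, by 0.99 ± 0.18 (SE) and 0.66 ± 0.08 (SE), and ACSL3 by 0.55 without MV4-11 replicates 1 and 3. For nuclear-encoded genes of the respiratory chain, 16 of 50 tested members were higher in Molm-14 and 4 were higher in MV4-11 (median 0.12, or 0.18 without MV4-11 replicates 1 and 3), and 14 and 1 of these calls held without MV4-11 replicates 1 and 3. CYCS, which encodes cytochrome c, had 202, 188 and 189.5 CPM in Molm-14 and 119, 115 and 139 CPM in MV4-11, a call lost when GC content and length were adjusted for. The 15 genes of the mitochondrial genome had a median of -0.75, with 1 called as higher in MV4-11, and a median of 0.12 with no call kept without MV4-11 replicates 1 and 3.

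Glutathione, NADPH and detoxification genes were near the background of 26.6% and 23.2%, as 9 of 35 tested members were higher in Molm-14 and 7 were higher in MV4-11. The genes named next are single members and no trait of the list. ME3, a mitochondrial malic enzyme gene, had 0, 0 and 0 reads in Molm-14 and 5.596, 5.06 and 5.75 CPM in MV4-11, at least 96.8-fold higher. CYP1B1, a cytochrome P450 gene, had 0.5001, 0.461 and 0.557 CPM in Molm-14 and 9.31, 14.5 and 9.096 CPM in MV4-11, a difference of -4.33 (SE 0.23, adjusted p = 2.0e-05), and GPX1, the main glutathione peroxidase, differed by -0.80 ± 0.09 (SE). GCLC, which catalyses the first step of glutathione synthesis, was higher in Molm-14, at 16.8, 17.8 and 19.1 CPM in Molm-14 and 4.63, 7.31 and 5.51 CPM in MV4-11, a difference of 1.64 (SE 0.18, adjusted p = 4.6e-04), and SOD2, the mitochondrial superoxide dismutase, by 1.13 ± 0.14 (SE). The metallothionein genes, zinc and copper buffers, differed within the family: 3 of 5 tested were higher in MV4-11 and 0 in Molm-14. MT1G had 0.556, 0.288 and 0.334 CPM in Molm-14 and 156, 89.1 and 175 CPM in MV4-11, a difference of -8.37 (SE 0.32, adjusted p = 5.0e-06) and of -7.78 without MV4-11 replicates 1 and 3. MT1E had 7.95, 7.04 and 8.24 CPM in Molm-14 and 218, 128 and 228 CPM in MV4-11, a difference of -4.58 (SE 0.22, adjusted p = 1.3e-05), while MT1X and MT2A had differences of 0.36 (SE 0.19, adjusted p = 0.15) and -0.34 (SE 0.22, adjusted p = 0.23) and were not called. Without MV4-11 replicates 1 and 3, the differences of MT1X and MT2A were 0.80 and 0.22, so that MT2A changed sign. Metallothioneins are close paralogs, and reads may have been split between them.

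Imprinted genes, which DNA methylation is known to silence on a single parental copy, were also compared. So were cancer-testis genes, which it is known to hold silent in most adult tissues. Of the imprinted list, 5 of 21 tested members were higher in Molm-14 and 9 were higher in MV4-11 (all genes tested: 26.6% and 23.2%). The median was -0.40, or -0.23 without MV4-11 replicates 1 and 3. FAM50B had 0, 0 and 0 reads in Molm-14 and 7.43, 6.55 and 7.06 CPM in MV4-11, at least 124-fold higher. MKRN3, a gene of the Prader-Willi region, had 2, 1 and 2 reads in Molm-14 and 7.26, 7.77 and 5.75 CPM in MV4-11, a ratio of 74.4 (95% interval 31.6 to 231). NDN, of the same region, had 0, 1 and 1 reads and 2.798, 2.66 and 2.39 CPM, a ratio of 69.96 (95% interval 19.02 to 583). GRB10, an adaptor of insulin signalling, was higher in Molm-14, at 66.5, 66.95 and 73.5 CPM in Molm-14 and 25.1, 33.4 and 23.4 CPM in MV4-11. Of the cancer-testis genes, 2 of 8 tested members were higher in Molm-14 and 4 were higher in MV4-11. MAEL, a gene of the piRNA pathway, was higher in Molm-14, at 2.11, 2.999 and 3.45 CPM in Molm-14 and 0.753, 0.307 and 0.299 CPM in MV4-11, and the piRNA factor gene PIWIL4 was higher in MV4-11, with a difference of -0.63 ± 0.14 (SE). Of the genes of DNA methylation and chromatin silencing, 10 of 31 tested members were higher in Molm-14 and 3 were higher in MV4-11 (median 0.20, or 0.08 without MV4-11 replicates 1 and 3). DNMT3B, which methylates DNA de novo, had 64.5, 64.5 and 67.6 CPM in Molm-14 and 42.9, 36.5 and 44.6 CPM in MV4-11, a difference of 0.67 (SE 0.10, adjusted p = 0.0021). BMI1, a subunit of Polycomb complex PRC1, had 346, 332 and 336 CPM in Molm-14 and 138, 146 and 138 CPM in MV4-11, a difference of 1.27 (SE 0.08, adjusted p = 3.2e-05). CBX7, another Polycomb subunit gene, and MORC2, a gene of the HUSH silencing pathway, were higher in MV4-11, with differences of -0.83 ± 0.12 (SE) and -0.94 ± 0.11 (SE).

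A few genes were above both other lines in MV4-11. With at least 20 CPM and more than 2 times the level of Molm-14 and SKNO-1, 13 genes were found, 3 of them in the mitochondrial genome. TCF4 was one. MPEG1, a macrophage pore-forming protein gene, had a mean of 49.96 ± 6.11 CPM (SD, n = 3) in MV4-11, 1.29 CPM in Molm-14 and 21.5 CPM in SKNO-1. FGL2, a secreted immune regulator of myeloid cells, had 45.5 ± 7.901 CPM in MV4-11 against 3.81 and 18.5 CPM. HCN2, an ion channel gene, had 42.8 ± 5.21 CPM against 10.9 and 1.37 CPM. These genes were chosen after their values were seen, and no test was made of them against SKNO-1.

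The median difference of the tested genes was compared between chromosomes, with no test. Chromosome 13 had the highest median, 0.53 over 259 genes, with 59.5% of its genes called as higher in Molm-14. Chromosomes 10 and 6 followed with 0.36 and 0.34. Chromosome 19 had the lowest, -0.35 over 1113 genes, with 43.2% called as higher in MV4-11. Over the 23 chromosomes, these medians correlated with the median transcript GC content of the genes (r = -0.82, a description over chromosomes that share the 6 libraries), which was 42.2% on chromosome 13 and 58.2% on chromosome 19. Without MV4-11 replicates 1 and 3, the medians of chromosomes 13, 10, 6 and 19 were 0.44, 0.24, 0.31 and -0.21. After adjustment for GC content and length they were 0.27, 0.19, 0.22 and -0.22. In the RMC-4550 cultures they were 0.45, 0.25, 0.29 and -0.18. The part of GC content in these values was not tested further, and the number of copies of each chromosome was not measured.

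**Figure D5:**
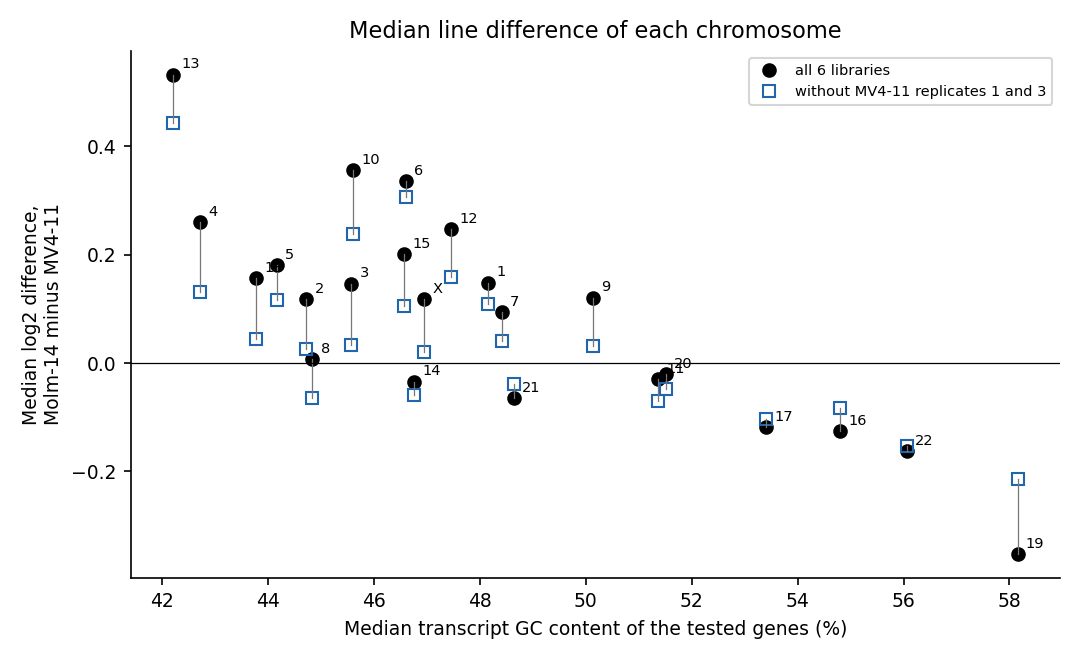
Median log2 difference (Molm-14 minus MV4-11) of the tested genes of each chromosome against the median transcript GC content of those genes in percent, with filled circles for all 6 libraries and open squares without MV4-11 replicates 1 and 3. The medians fall as GC content rises, from chromosome 13 at 0.53 to chromosome 19 at -0.35, and chromosomes 13, 10 and 6 lie above the others of like GC content.

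The same lines were compared in the cultures with RMC-4550, which share no library with the DMSO cultures. In these, Molm-14 replicate 2 and MV4-11 replicate 1 had the high mitochondrial shares, 15.02% and 10.5%. There, 2294 of 14778 genes (15.5%) were higher in Molm-14 and 2515 (17.0%) higher in MV4-11, and 4503 and 4002 without those libraries. Among 14130 genes tested in both, 1407 of 3769 genes called as higher in Molm-14 with DMSO (37.3%) were called so again, which is 64.5% of the 2183 called with RMC-4550. For MV4-11, 1854 of 3289 (56.4%) were called again, 78.9% of 2351. The reverse direction was called for 44 and 39 genes. The KMT2A difference was -1.89 with RMC-4550, that of HOXA9 0.71, of HLA-DRA -5.95, of TLR2 -5.32, of FADS2 -4.95, of DSG2 3.06 and of HK1 -4.32, all called as with DMSO. BMF, higher in MV4-11 with DMSO, was higher in Molm-14 with RMC-4550 by 0.79. FLT3 and PTPN11 were not called there, with differences of -0.03 and 0.19. Whether a line difference changed with the drug was not tested here.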

How the data were processed

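Per the labels' protocols, mRNA was selected with oligo(dT) and libraries were read on a DNA nanoball platform. FastQC, STAR, limma and the build GRCh38 are named in the submitters' processing notes; the counter, annotation, strandedness and filters are not given in the sources used here. The authors deposited 1 table of log2 values for 40184 Ensembl gene IDs. From the values, each is the log2 CPM of reads plus 0.5 over a scaled library size: 100% of values up to 20 reads came out whole (within 0.1) in every library. Reads and CPM were computed from this form. The symbols of 40174 IDs were matched.

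The deposited log2 values of the 6 libraries entered a two-sided limma fit (version 3.58.1, R 4.3.3; moderated variances with an intensity trend), with Benjamini-Hochberg adjustment over 14472 genes. The replicate numbers of the lines did not pair the samples, so no block was fitted. Data were simulated for the same 14472 genes, with 200 genes changed and noise drawn for each gene separately. In these, 76 of 100 changes of 1 and 100 of 100 changes of 2 (log2) were recovered. Of the simulated calls, 1.12% were unchanged genes. In the real data 49.8% of genes were called and many genes shared shifts that went with GC content, so that share does not carry over to them. Genes at 3 reads or fewer in each library of a line have no fitted fold change printed, only a bound or a read ratio. The genes named were KMT2A, AFF1, MLLT3, HOXA9, MEIS1, FLT3, KIT, PTPN11 and lineage-defining markers, and up to 4 called members of each list and direction by size. The 10 largest differences and highest floor genes per direction were also named. The largest differences were taken among called genes with at least 10 CPM in the higher line and libraries of the lines that did not overlap. The HOXA and metallothionein genes, HOXB9, RUNX1T1 and the CDKN2A neighbours were added after their values were seen. Some genes that the rule names are not reported here. The members and lists were chosen with earlier results of these data known.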

Additional observations from a re-analysis of the deposited data

How the results depend on the processing

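The count of genes higher in Molm-14 with DMSO, 3850, was 6199 with library weights and 126 with the 2-fold threshold, and 2130 to 6189 when 1 library was left out. The highest value, 6189, came without MV4-11 replicate 2, and leaving out any Molm-14 replicate (2239, 2179 and 2130) or MV4-11 replicate 1 (2344) lowered the count by more than 1.5 times. The count higher in MV4-11, 3352, was 2096 for genes with a mean of at least 5 CPM and 937 with the 2-fold threshold, and 2513 to 4885 when 1 library was left out. With a replicate block the counts were 3517 and 3077. The replicate numbers did not pair the samples: the deviations of same-numbered libraries correlated at 0.07, 0.02 and -0.06, and Molm-14 replicates 1, 2 and 3 correlated best with MV4-11 replicates 3, 2 and 2. With RMC-4550, the count higher in Molm-14, 2294, was 1269 to 3061 when 1 library was left out and 4503 without both libraries of high mitochondrial share, and the count higher in MV4-11, 2515, was 1710 to 2894 and 4002. The 49 genes read in MV4-11 and at the floor in Molm-14 became 96 with a minimum of 5 CPM, and the reverse count was 0 in every setting tried. The chromosome 13 median of 0.53 was 0.46 with median-ratio scaling, 0.44 without MV4-11 replicates 1 and 3 and 0.27 with GC content and length adjusted, an adjustment added after the data were seen. That of chromosome 19, -0.35, was -0.43, -0.21 and -0.22 in these settings and -0.27 for genes with a mean of at least 5 CPM. Of 224 named genes called, 174 kept their call in every setting other than the 2-fold threshold, 39 lost it without at least 1 single library, 13 without MV4-11 replicates 1 and 3, and 0 reversed. Read depth limits the low genes: at these depths 3 reads correspond to less than 0.2 CPM.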
